A study of Mus musculus with 20 samples.

Results

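Immediate early genes are transcribed within minutes of a stimulus to the cell and need no new protein synthesis to start. The members described here are 10 genes chosen by name, Fos, Fosb, Jun, Junb, Jund, Atf3, Egr1, Ier2, Dusp1 and Zfp36, out of 23432 gene symbols in each count file. Expression was measured by RNA sequencing in 12 libraries of sorted mouse embryonic back skin cells, 3 in each of 4 groups. KO epidermis came from embryonic day 13 (E13) embryos of the genotype {delta}Np63 -GFP KI-KO. E13 Het epidermis and E9 Het epidermis (replicates 1, 2 and 4) came from {delta}Np63 -GFP KI-Het embryos at embryonic days 13 and 9. Dermis came from {delta}Np63 -GFP KI-Het embryos at embryonic day 13.

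The titles of the dermal samples read Ctrl, while their genotype label reads KI-Het, which was used here. By the genotype labels every group carried the GFP knock-in at Trp63, which encodes the transcription factor p63, and none is wild type. Skin was dissociated with collagenase and trypsin, after which epidermal cells were sorted on GFP and dermal cells on CD140a, a receptor of fibroblasts. Epidermal RNA was depleted of ribosomal RNA while dermal RNA was selected with oligo(dT), so tissue and library preparation cannot be told apart. The labels do not say whether replicates are separate animals, so p-values measure only the spread between these libraries, which may be technical. Cells that were not dissociated are not among the samples analysed here, and every level below is that of dissociated and sorted cells. In such bulk samples, fewer expressing cells and less RNA per cell cannot be told apart.

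Fos, Fosb, Jun, Junb and Jund encode subunits of AP-1, a dimeric transcription factor that binds TGAGTCA and related sites. Signals from growth factor receptors and stress kinases act on the promoters of these genes through serum response factor with its partners and through CREB and ATF factors, and Dusp1 and Zfp36 then limit the response by inactivating the kinases and degrading the transcripts. In adult and cultured epidermis AP-1 is known as a regulator of keratinocyte differentiation. Transcripts of this class are also known to be induced when tissues are dissociated with enzymes at a warm temperature.

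Promoter windows of 250 bases upstream of the annotated start were read from RefSeq sequence of GRCm38.p6, which held 8 of the 10 members. Egr1 and Ier2 had no entry. The windows of 5 members on which the results below turn are shown so that their sites can be read directly. Each is written on the coding strand, with matches to TGACG, the core of the CREB and ATF site, in capitals on either strand.
Fos (chr12:85473640-85473889, plus strand): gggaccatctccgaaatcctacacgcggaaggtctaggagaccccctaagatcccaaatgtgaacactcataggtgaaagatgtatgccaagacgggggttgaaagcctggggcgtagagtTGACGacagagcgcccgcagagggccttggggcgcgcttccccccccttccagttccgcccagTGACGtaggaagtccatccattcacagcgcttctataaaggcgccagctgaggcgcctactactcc
Jun (chr4:95052223-95052472, minus strand): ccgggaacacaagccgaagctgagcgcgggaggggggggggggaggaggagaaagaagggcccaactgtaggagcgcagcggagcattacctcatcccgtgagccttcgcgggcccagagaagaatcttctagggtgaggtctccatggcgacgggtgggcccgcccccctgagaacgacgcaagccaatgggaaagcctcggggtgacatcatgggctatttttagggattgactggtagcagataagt
Atf3 (chr1:191183334-191183583, minus strand): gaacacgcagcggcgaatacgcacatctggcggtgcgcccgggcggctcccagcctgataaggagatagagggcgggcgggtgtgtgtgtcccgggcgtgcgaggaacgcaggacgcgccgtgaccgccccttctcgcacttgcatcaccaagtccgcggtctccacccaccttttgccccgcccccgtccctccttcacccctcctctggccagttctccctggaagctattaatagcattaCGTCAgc
Dusp1 (chr17:26508473-26508722, minus strand): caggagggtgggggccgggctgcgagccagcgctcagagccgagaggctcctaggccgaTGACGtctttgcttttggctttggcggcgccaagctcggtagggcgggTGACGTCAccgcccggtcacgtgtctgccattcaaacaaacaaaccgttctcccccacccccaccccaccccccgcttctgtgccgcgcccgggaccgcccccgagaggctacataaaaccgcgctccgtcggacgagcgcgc
Zfp36 (chr7:28379229-28379478, minus strand): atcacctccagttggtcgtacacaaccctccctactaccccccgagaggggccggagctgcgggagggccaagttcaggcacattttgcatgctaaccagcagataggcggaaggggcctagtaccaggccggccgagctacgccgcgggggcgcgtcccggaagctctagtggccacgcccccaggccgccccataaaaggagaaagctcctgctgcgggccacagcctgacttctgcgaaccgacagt
TGACG was found on at least 1 strand in 5 of the 8 members' windows, against 17.8% of 32851 promoter windows of the same length. The matches began 129 and 66 bases before the start in Fos, 60 in Fosb, 106 in Junb, 7 in Atf3, and 191, 143 and 140 in Dusp1. The last pair in Dusp1 overlap as the full palindrome TGACGTCA, which 1.55% of all windows hold. TGAGTCA, the AP-1 site, was in none of the 8 windows and in 4.46% of all. GGGCGG, the core of the Sp1 site, was in 6 of 8 windows (all but Junb and Jund) and in 32.7% of all, and TATAAA in Fos alone and in 12.4% of all. The CArG box, bound by serum response factor, was matched in Zfp36 alone, 58 bases before the start, and in 1.47% of all windows. GCGNGGGCG, the Egr1 site, was matched in Fosb and Zfp36 and in 4.70% of all. The Fosb window, chr7:19310046-19310295, overlaps the annotated span of its gene, which ends at 19310118. Its TGACG and Egr1 site matches lie within that span. These matches describe letters in a window and do not locate bound sites. Only these patterns within 250 bases were searched. Variant sites, sites further upstream and the promoters of Egr1 and Ier2 were not covered, so a missing match does not show that a gene lacks the site.

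Epidermal libraries held 3373819 to 7777808 reads counted on genes and dermal libraries 16931664 to 33386872. Replicate 1 of E13 Het epidermis and replicate 3 of KO epidermis had the fewest genes with a count, 10765 and 11275, where the others had 12642 to 16200. Levels are given in CPM, counts per 1000000 reads counted on genes, with TMM factors that correct for unequal library composition. A count of 0 allows up to 3 counts, or 0.371 to 0.776 CPM in an epidermal library. Trp63, the altered gene, stood at 23.0, 25.0 and 20.4 CPM in KO epidermis, against 519.9, 611 and 454 CPM in E13 Het epidermis. It was 23.3-fold lower in KO epidermis (edgeR log2 fold change -4.54 ± 0.28, adjusted p = 1.5e-06). Its level was 279, 218 and 121 CPM in E9 Het epidermis, and 0.462, 0 and 2.15 CPM in dermis, where a count of 0 allows 0.259 CPM in that library. The 8 epidermal marker genes summed to 2565 to 3511 CPM in KO, 3319.8 to 4484 CPM in E13 Het and 1741 to 1924 CPM in E9 Het epidermis, and to 6.06 to 9.66 CPM in dermis.

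All 10 members were detected in every group, and all 10 passed the filter on low counts in both fits. Each was highest in dermis and lowest in E9 Het epidermis by its group mean, except that Jund was highest in KO epidermis on raw library totals or without the abundant RNAs Rn45s and Lars2. Between these, KO epidermis ranked above E13 Het epidermis for 4 members and below it for 6 (5 and 5 with the other scalings), and the libraries of these 2 groups overlapped for all 10. Summed over the members, KO epidermis had 1268, 645 and 446 CPM and E13 Het epidermis 302, 822 and 1348 CPM. The sum was 188, 144 and 132 CPM in E9 Het epidermis and 2943, 2418 and 3463 CPM in dermis. By this sum, to which the most abundant members add most, the 4 groups fell into 3 levels, with KO and E13 Het epidermis overlapping in the middle. Not every member followed it. Fosb, Jund and Atf3 overlapped between dermis and E13 Het epidermis, and Fosb, Ier2, Dusp1 and Zfp36 between E13 Het and E9 Het epidermis.

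**Figure D1:**
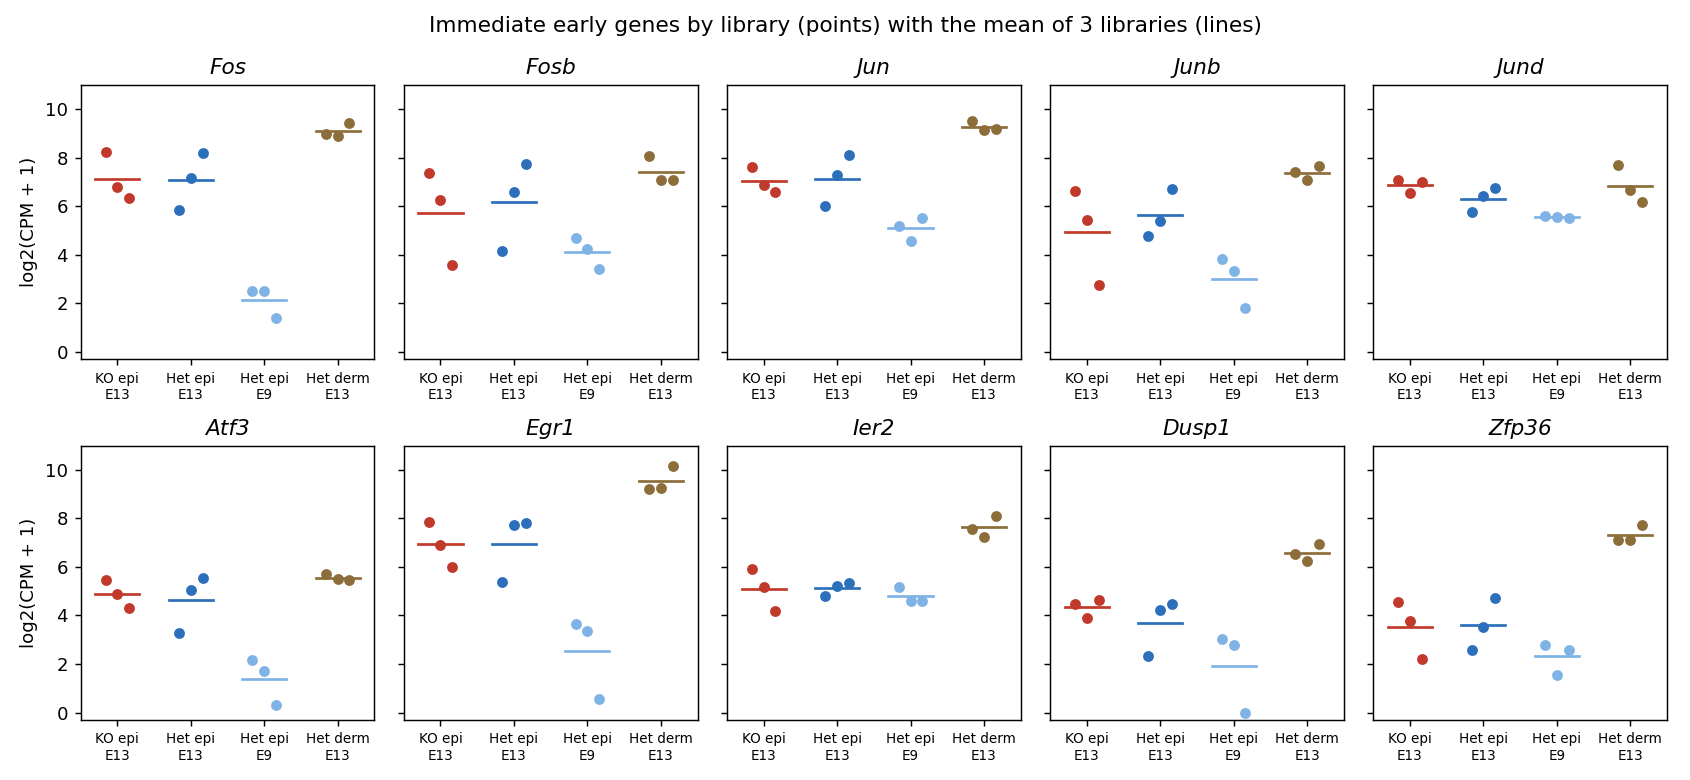
Level of each immediate early gene in 12 libraries, as log2(CPM + 1) on TMM scaling. Points are libraries and lines the mean of 3 libraries on that log2 scale. By mean CPM dermis (right) is highest and E9 Het epidermis lowest for each gene. The Jund line lies slightly higher in KO epidermis than in dermis, and its mean was highest in KO epidermis on raw totals. KO and E13 Het epidermis (left) overlap in all 10.

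The first comparison asked which members differ between KO and Het epidermis at E13. No member was called at an adjusted p under 0.05, and all 10 had libraries that overlap between the groups. Fos, the prototype AP-1 subunit, stood at 299.7, 109 and 80.2 CPM in KO epidermis, against 55.8, 142 and 296 CPM in E13 Het epidermis. The highest libraries of the 2 groups were nearly equal, and so were the means, 163 ± 119 CPM in KO and 164 ± 122 CPM in E13 Het epidermis (SD, n = 3 each). The Fos log2 fold change was -0.02 ± 0.68 (adjusted p = 0.996), with a 95% interval from -1.61 to 1.56. An interval of this width covers changes of more than 2-fold in either direction, so a p that misses the threshold does not show equal expression.

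Jund, an AP-1 subunit that many cells express without a stimulus, had the narrowest interval of the 10. Its level was 133, 93.3 and 128 CPM in KO epidermis and 53.1, 85.0 and 106 CPM in E13 Het epidermis. The lowest KO library lay below the highest E13 Het one, and the log2 fold change of 0.53 ± 0.25 did not pass (interval -0.01 to 1.08, unadjusted p = 0.0553, adjusted p = 0.456). Atf3, a stress-induced partner of AP-1 subunits, differed by 0.06 ± 0.69 (interval -1.41 to 1.53). For Egr1, a zinc finger factor of the early response, the difference was -0.19 ± 0.88 (interval -2.27 to 1.88). The other log2 fold changes were -0.40 for Fosb, -0.29 for Jun, -0.25 for Junb, 0.10 for Ier2, 0.45 for Dusp1 and -0.10 for Zfp36, with adjusted p from 0.923 to 0.990.

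Of the 10 members, edgeR called 0 in either direction, against 2.20% of 13052 genes tested, and 0 had an unadjusted p under 0.05. DESeq2 also called 0. Libraries did not overlap for 0 of 10 members, against 20.0% of all genes tested. The members' median log2 fold change was -0.06, beside 0.03 over all genes, with 4 values above 0 and 6 below. The sign depended on single libraries. Without E13 Het replicate 3 all 10 values were above 0 (median 0.56), and without KO replicate 1 only 2 were (median -0.71).

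Spread within the E13 groups was wide and shared among members. E13 Het replicate 1 was the lowest of its group for 10 of 10 members and replicate 3 the highest for 10 of 10. In KO epidermis replicate 3 was lowest for 8 members and replicate 1 highest for 9. How often other genes were lowest or highest in these libraries was not computed, so the counts are not read as particular to the members. The 2 low libraries are the ones with the fewest genes detected, and the part of this in their levels was not tested. The coefficient of variation had a member median of 59.8% in KO, 64.8% in E13 Het and 48.9% in E9 Het epidermis and 25.5% in dermis. Over all genes with at least 10 CPM the median was 22.3%, 22.8%, 20.4% and 17.9% in the same groups. No such minimum was set for the members. In E9 Het epidermis the means of Fos, Junb, Atf3, Egr1, Dusp1 and Zfp36 were under 10 CPM, where counting noise is larger. The 2 E9 values are therefore not at like levels.

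Deviations from the group means were compared between members over the 9 epidermal libraries, as a description with no test. All 45 pairs of members had a positive Pearson r, from 0.08 for Dusp1 with Zfp36 to 0.98 for Atf3 with Egr1, with a median of 0.70 (median Spearman rho 0.68). Members of a pair share the libraries, their depth and their scaling. Deviations within a group are tied to each other by its mean, so the 9 are not independent values. Pairs of other genes were not computed for comparison. Without E13 Het replicate 1 and KO replicate 3 the median was 0.71 over 7 libraries, 40 of 45 pairs were positive and the lowest was -0.39. The remaining deviations of each E13 group then mirror each other, so this is no separate check of shared spread. Among 9403 other genes with at least 10 CPM, those closest to the members' mean profile of deviations were Tmod3, Rbm18, Hist1h2bn, Selk and Htt, with r from 0.97 to 0.98, and 0.564% of genes had r over 0.9. On levels over the same 9 libraries, the closest were Sepw1, Ankrd44, Cdk19, Stx4a and Fbxl20, with r from 0.94 to 0.95, and 0.362% of genes had r over 0.9.

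The second comparison set E13 against E9 in Het epidermis. Fos, Jun and Atf3 rose, and all 10 members had a positive log2 fold change. Fos was at 55.8, 142 and 296 CPM at E13, against 4.68, 4.76 and 1.61 CPM at E9, where it had 33, 27 and 7 counts. Every E13 library was more than 10-fold above every E9 library. Fos rose 43.1-fold (log2 fold change 5.43 ± 0.87, adjusted p = 0.00879). Its call was lost without E9 replicate 1 or 2, where the adjusted p reached 0.0547 and the log2 fold change stayed at 4.67 or above.

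Jun, the main partner of Fos in AP-1, was at 64.0, 153 and 278 CPM at E13 and 34.9, 22.5 and 45.2 CPM at E9. The groups did not overlap, though the lowest E13 library was near the highest E9 one. Jun rose by 2.28 ± 0.52 on the log2 scale (adjusted p = 0.0281), and its call was lost without E13 Het replicate 2 or any 1 of the 3 E9 libraries (adjusted p up to 0.125). Atf3 was at 8.82, 31.7 and 45.1 CPM at E13 and 3.55, 2.29 and 0.229 CPM at E9, the last from 1 count. It rose 13.6-fold (3.76 ± 0.79, adjusted p = 0.00869) and kept its call in 6 of 6 refits with 1 library left out (adjusted p up to 0.0463). The Atf3 call was lost with replicate number added to the edgeR fit (adjusted p = 0.0986).

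Egr1 was at 40.7, 209 and 222 CPM at E13, against 11.5, 9.34 and 0.459 CPM at E9 (81, 53 and 2 counts). The groups did not overlap and the log2 fold change was 4.41 ± 1.05, but the adjusted p of 0.0525 missed the threshold. Without E13 Het replicate 1 Egr1 was called (adjusted p = 0.0335, range 0.0335 to 0.178 over 6 libraries left out). Jund was at 53.1, 85.0 and 106 CPM at E13 and 47.4, 46.7 and 44.3 CPM at E9. Its E9 libraries differed by little, its groups did not overlap, and its log2 fold change was 0.82 ± 0.26 (adjusted p = 0.0728). Without E13 Het replicate 1 Jund was called too (adjusted p = 0.0168, range 0.0168 to 0.308).

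Junb, an AP-1 subunit that can oppose Jun, was at 26.7, 40.4 and 103 CPM at E13 and 13.2, 8.98 and 2.52 CPM at E9 (2.77 ± 0.97, adjusted p = 0.145). For Fosb the E13 libraries had 17.0, 95.8 and 210 CPM and the E9 libraries 24.7, 17.8 and 9.63 CPM. These overlap, since E13 Het replicate 1 lies below 2 of the E9 libraries, and the change of 2.62 ± 1.14 did not pass (adjusted p = 0.267). The feedback genes also overlapped between ages. Dusp1, a phosphatase gene that inactivates MAP kinases, had 4.07, 17.8 and 21.4 CPM at E13 and 7.23, 5.81 and 0 CPM at E9 (1.71 ± 1.01, adjusted p = 0.408), where 0 counts allow 0.688 CPM. Zfp36, whose product degrades AU-rich transcripts, had 4.97, 10.6 and 25.7 CPM at E13 and 5.96, 1.94 and 5.04 CPM at E9 (1.67 ± 0.92, adjusted p = 0.357). Ier2, a nuclear protein gene of the early response, differed least, at 26.9, 36.3 and 39.8 CPM at E13 and 35.2, 23.4 and 23.2 CPM at E9 (0.34 ± 0.42, interval -0.56 to 1.24).

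In all, 3 of 10 members were called higher at E13 and 0 lower, against 4.77% and 2.53% of 13052 genes tested. Another 3 had an unadjusted p under 0.05, and DESeq2 called 6. Libraries did not overlap for 6 members, all higher at E13, against 15.0% of all genes higher without overlap. The members' median log2 fold change was 2.45, beside -0.00 over all genes. With 1 library left out the count ranged from 1, without E9 replicate 1 or 2, to 5, without E13 Het replicate 1. It was 7 with both E13 Het replicate 1 and KO replicate 3 left out.

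**Figure D2:**
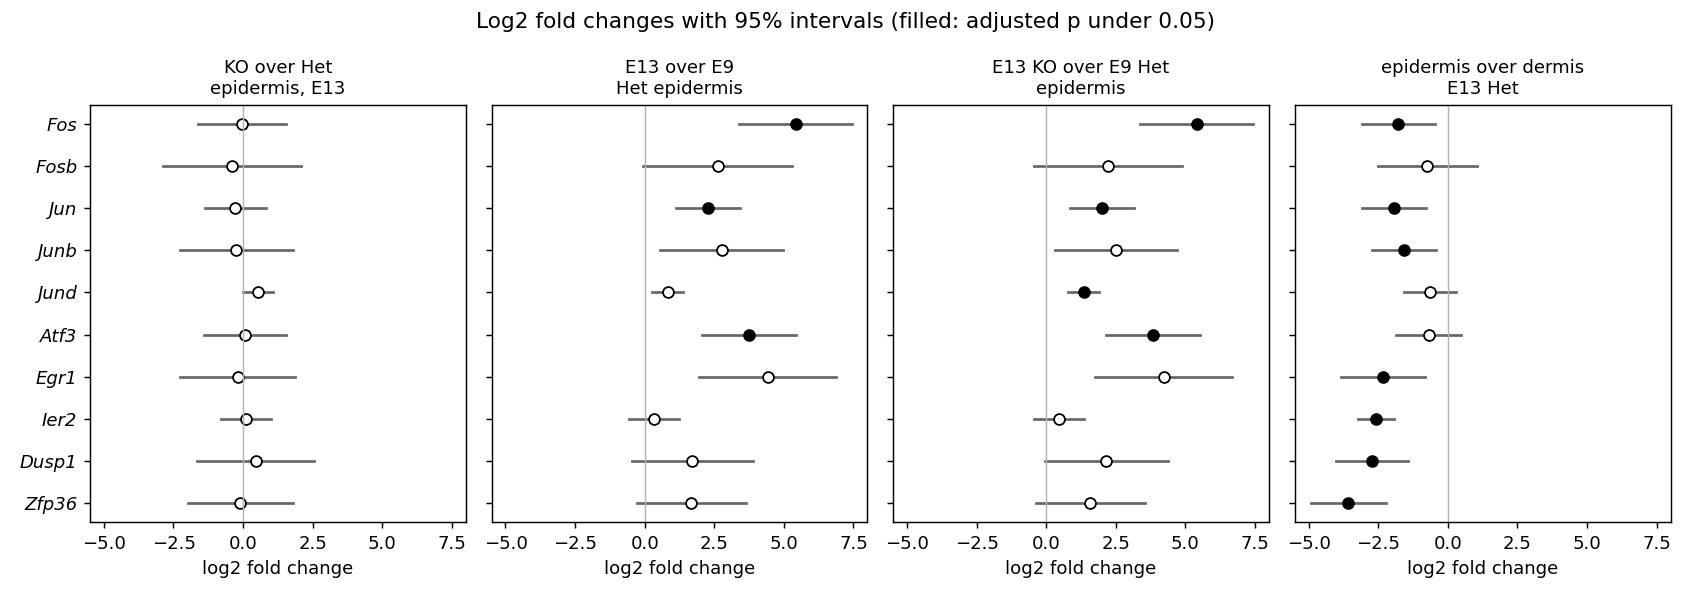
Log2 fold change of each member with its 95% interval in 4 comparisons, from edgeR; filled points passed an adjusted p of 0.05. Intervals cross 0 for all 10 members in KO over Het epidermis. By adjusted p, 3 members pass as higher in E13 over E9, 4 as higher in E13 KO over E9 Het and 7 as lower in epidermis over dermis. Intervals of Junb and Egr1 also lie above 0 in both comparisons with E9, and that of Jund in E13 over E9, without a call.

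The third comparison set KO epidermis at E13 against E9 Het epidermis. It shares its E9 libraries with the second, so the 2 results are not independent. Age and genotype both differ between its groups and cannot be told apart here. Fos, Jun, Jund and Atf3 were called higher in KO epidermis and 0 members lower, against 4.62% and 3.05% of all genes tested. The Fos log2 fold change was 5.41 ± 0.87 (adjusted p = 0.00898) and that of Atf3 3.82 ± 0.79 (adjusted p = 0.00808). Jund was at 133, 93.3 and 128 CPM in KO and 47.4, 46.7 and 44.3 CPM in E9 Het epidermis. It was 2.55-fold higher in KO epidermis (1.35 ± 0.26, adjusted p = 0.00492). Its KO libraries all lay at nearly 2-fold the highest E9 one or above. Jund and Atf3 kept their calls in 6 of 6 refits with 1 library left out. Both calls were lost with replicate number added to the edgeR fit (adjusted p = 0.0678 for Jund and 0.0694 for Atf3).

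Jun, at 197, 117 and 94.2 CPM in KO epidermis against 34.9, 22.5 and 45.2 CPM in E9 Het epidermis, passed narrowly (1.99 ± 0.51, adjusted p = 0.0461). Its call was lost whichever of the 6 libraries was left out (adjusted p from 0.0693 to 0.171). The Fos call was lost without E9 replicate 1 or 2 (adjusted p up to 0.0559). Egr1 was at 232, 119.6 and 63.1 CPM in KO and 11.5, 9.34 and 0.459 CPM in E9 Het epidermis, with no overlap, and did not pass (4.22 ± 1.04, adjusted p = 0.0566). Dusp1 had 21.5, 13.96 and 24.1 CPM in KO and 7.23, 5.81 and 0 CPM in E9 Het epidermis, again with no overlap and no call (2.16 ± 1.03, adjusted p = 0.248). Junb was called without KO replicate 3 (adjusted p = 0.0427, range 0.0427 to 0.457), its level there being 5.69 CPM against 96.9 and 41.9 CPM in the other KO libraries. Fosb (2.23 ± 1.12), Ier2 (0.44 ± 0.42) and Zfp36 (1.58 ± 0.91) did not pass, with adjusted p from 0.328 to 0.640. The libraries of 6 members did not overlap, against 16.7% of all genes higher without overlap, and DESeq2 called 6. The members' median was 2.20, beside 0.01 over all genes.

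The balance of Fos and Fosb within a library, compared after its values were seen, also differed between ages. Reads of Fos over reads of Fosb came to 1.85, 1.46 and 7.38 in KO epidermis, 3.29, 1.48 and 1.41 in E13 Het epidermis and 0.190, 0.267 and 0.167 in E9 Het epidermis, with 1.89, 3.51 and 5.09 in dermis. All E9 values lay below 1 and all others above it. The ratio needs no scaling between libraries, but it is not corrected for the lengths of the 2 transcripts and so is read only across libraries. For Jun over Jund the values were 1.48, 1.25 and 0.735 in KO, 1.20, 1.80 and 2.64 in E13 Het and 0.737, 0.483 and 1.02 in E9 Het epidermis, and 3.51, 5.49 and 8.09 in dermis. Here E13 Het and E9 Het epidermis did not overlap, while 1 KO library lay within the E9 range.

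**Figure D3:**
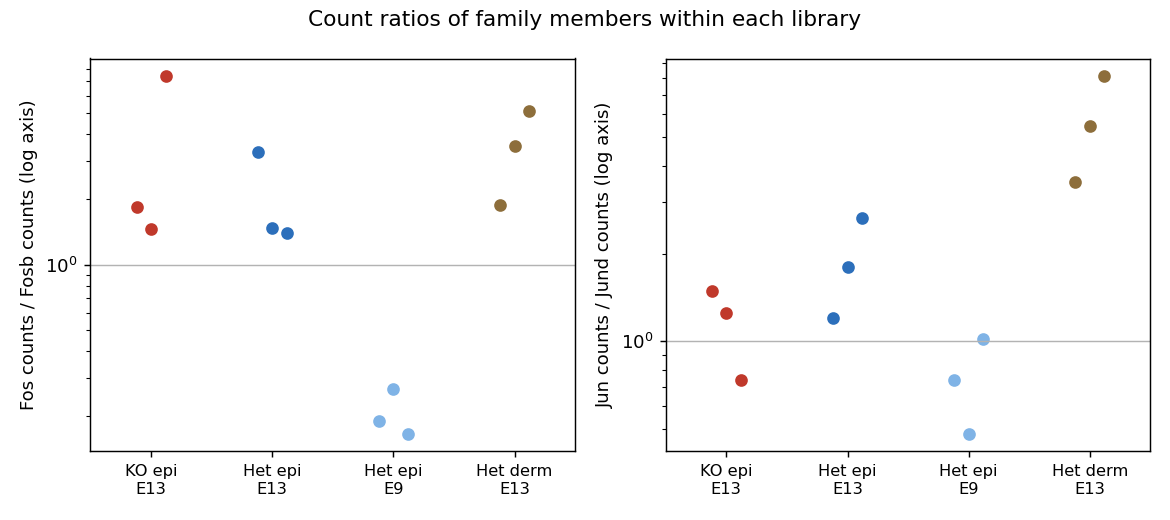
Ratio of Fos to Fosb counts (left) and of Jun to Jund counts (right) in each of 12 libraries, on log axes with a line at 1. The E9 Het epidermal libraries lie at 0.167 to 0.267 in the left panel, below every other library, and dermis is highest in the right panel.

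Of the marker lists given here for other cells, only dermal mesenchyme lay apart from E9 Het epidermis in both E13 epidermal groups. The 8 dermal mesenchyme genes summed to 1108 to 2164 CPM in KO and 428 to 1484 CPM in E13 Het epidermis, against 220.3 to 312 CPM in E9 Het epidermis, where Dcn, Lum and Twist2 were at 0. Lum and Twist2 were also at 0 in KO replicate 3 and E13 Het replicate 1. In dermis the 8 genes summed to 31545 to 42417 CPM. As a share of the dermis mean this sum was 3.05%, 5.96% and 3.41% in the KO libraries, 1.18%, 4.09% and 1.47% in the E13 Het libraries and 0.607% to 0.859% in the E9 libraries. Fos on the same footing was 53.9%, 19.6% and 14.4% of its dermal mean in KO, 10.04%, 25.5% and 53.2% in E13 Het and 0.289% to 0.855% in E9 Het epidermis. Atf3 was 93.9%, 61.3% and 40.5% in KO, 19.2%, 69.0% and 98.1% in E13 Het and 0.498% to 7.71% in E9 Het epidermis.

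Macrophage and leukocyte genes summed to 3.62 to 41.6 CPM in KO and 35.9 to 44.9 CPM in E13 Het epidermis, and to 3.55 to 8.94 CPM in E9 Het epidermis, where Ptprc, Emr1, C1qa, C1qb and Tyrobp were at 0. These genes and Csf1r were also at 0 in E13 Het replicate 1 and KO replicate 3. The sums there, 35.9 and 3.62 CPM, were Cd68 alone. Endothelial genes summed to 11.4 to 20.1, 0 to 26.6 and 1.99 to 14.4 CPM in KO, E13 Het and E9 Het epidermis. Neuronal genes summed to 53.8 to 144 CPM in KO, 1.81 to 25.7 CPM in E13 Het and 23.8 to 71.5 CPM in E9 Het epidermis, muscle genes to at most 8.46, 2.96 and 81.2 CPM, and melanocyte genes to at most 10.5, 7.15 and 12.6 CPM. The part of the cells these lists mark in the members' levels was not tested.

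Related genes were followed in the same fits, by lists drawn up by function. Over all genes tested, 4.77% were called higher and 2.53% lower at E13 than E9 in Het epidermis. The shares were 4.62% and 3.05% in KO against E9 Het epidermis, and 2.20% in either direction between KO and Het at E13. A single call in so short a list is not read as a result about the list. Among 12 tested of 15 other AP-1 and bZIP factors, edgeR called 0 between KO and Het at E13, where 1 had an unadjusted p under 0.05 and DESeq2 called 1 lower. Of the same 12, 1 was called higher at E13 than E9 in Het epidermis and 0 lower. This was Fosl2, the gene of the Fos-related subunit Fra-2, at 56.1, 108 and 145 CPM at E13 and 14.9, 5.99 and 6.19 CPM at E9 (3.49 ± 0.42, adjusted p = 0.00012). The KO libraries had 81.7, 77.3 and 98.3 CPM of Fosl2, higher than E9 by 3.22 ± 0.41 (adjusted p = 0.00025). Both Fosl2 calls were kept in 6 of 6 refits with 1 library left out. In KO against E9 Het epidermis, Jdp2, a repressor that dimerises with Jun, was lower (-2.80 ± 0.61, adjusted p = 0.0110, lost without E9 replicate 1 at 0.0528) and Atf5 was higher (1.82 ± 0.53, adjusted p = 0.0495). The Atf5 call was lost without 5 of the 6 libraries (all but E9 replicate 4, adjusted p up to 0.178).

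Of 38 tested among 41 other early response genes, 7 were called higher and 0 lower at E13 than E9 in Het epidermis. Over all genes tested the shares were 4.77% and 2.53%, and the median log2 fold change of the list was 1.12. Btg2, an antiproliferative gene of the early response, was at 26.1 ± 7.67 CPM at E13 and 1.86 ± 1.64 CPM at E9 (3.77 ± 0.68, adjusted p = 0.00296). Its relative Btg1 (1.65 ± 0.20, adjusted p = 0.00011), the kinase gene Plk2 (1.34 ± 0.19, adjusted p = 0.00042) and Ier5 (1.27 ± 0.24, adjusted p = 0.00442) rose too, and all 4 kept their calls in 6 of 6 refits. In KO against E9 Het epidermis 7 were called higher and 0 lower, with a median of 0.79. Plk2 (1.93 ± 0.19), Btg1 (1.51 ± 0.20), Btg2 (3.68 ± 0.68) and Ppp1r15a, a phosphatase subunit gene of the stress response (1.35 ± 0.28), had the smallest adjusted p, 2.2e-05 to 0.00884, and kept their calls in 6 of 6 refits. Between KO and Het at E13, 0 of 38 were called with edgeR and 10 had an unadjusted p under 0.05, while DESeq2 called 1 lower.

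Of 14 tested feedback inhibitors, 1 was called higher and 1 lower at E13 than E9 in Het epidermis, where 4.77% and 2.53% of all genes were. Dusp16, a phosphatase gene of stress kinases, rose at E13 over E9 (1.73 ± 0.25, adjusted p = 0.00059), and Spry4, an inhibitor of receptor tyrosine kinase signalling, fell to 3.59 ± 3.21 CPM at E13, against 74.4 ± 25.1 CPM at E9 (-4.32 ± 0.81, adjusted p = 0.00790). Between KO and Het at E13, 6 of 14 had an unadjusted p under 0.05, and DESeq2 called 1 higher and 2 lower. The median log2 fold change of the list there was -0.43, beside 0.03 over all genes. With edgeR 1 of 14 was called lower and 0 higher. This was Zfp36l2, a relative of Zfp36, at 23.6 ± 1.36 CPM in KO and 125 ± 20.5 CPM in E13 Het epidermis (-2.42 ± 0.23, adjusted p = 4.1e-05). It was also lower in KO than in E9 Het epidermis (-1.68 ± 0.23, adjusted p = 0.00038), where Dusp16 was higher (1.13 ± 0.25, adjusted p = 0.0119, lost without E9 replicate 2 at 0.0560).

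Of 23 upstream kinases and serum response factors, 1 was called lower in KO than Het epidermis at E13 and 0 higher. Of all genes tested, 2.20% were called there in either direction. In this list 2 had an unadjusted p under 0.05, and DESeq2 called 1 higher and 1 lower. Egfr, the receptor of epidermal growth factor, had 81.3 ± 20.9 CPM in KO and 369.8 ± 22.3 CPM in E13 Het epidermis (-2.20 ± 0.22, adjusted p = 6.8e-05). At E13 over E9 in Het epidermis 2 rose and 3 fell, with Egfr up by 2.03 ± 0.22 (adjusted p = 5.3e-05) and the ribosomal S6 kinase gene Rps6ka3 down (-1.18 ± 0.19, adjusted p = 0.00132). Mkl1, a cofactor of serum response factor, rose by 1.08 ± 0.24 (adjusted p = 0.0141, lost without E13 Het replicate 3 or E9 replicate 1 or 2 at up to 0.0760). Braf, a kinase of the MAP kinase cascade, fell by 0.71 on the log2 scale (adjusted p = 0.0334), a call kept only without E13 Het replicate 2 (adjusted p up to 0.114 otherwise). In KO against E9 Het epidermis 3 were higher and 1 lower. The receptor gene Erbb3 was higher (0.92 ± 0.18, adjusted p = 0.00600), also in 6 of 6 refits. Rps6ka3 (-0.85 ± 0.19, adjusted p = 0.0126), Mkl1 (1.002 ± 0.24, adjusted p = 0.0211) and the receptor gene Erbb2 (0.67 ± 0.18, adjusted p = 0.0363) each lost their calls with some libraries left out. This was so without KO replicate 1 or 2 or E9 replicate 2 for Rps6ka3 (adjusted p up to 0.0671), without KO replicate 1 or 3 or E9 replicate 1 or 2 for Mkl1 (up to 0.104), and without any library but KO replicate 2 for Erbb2 (up to 0.166).

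Heat shock genes, which report protein stress, were followed for comparison. At E13 over E9 in Het epidermis 5 of 15 rose and 2 fell, beside 4.77% and 2.53% of all genes tested, with a median of -0.11. Hsp90aa1, a chaperone gene, fell to 820.0 ± 138 CPM at E13, against 1497 ± 102 CPM at E9 (-0.86 ± 0.14, adjusted p = 0.00129). Hspa1b, an inducible chaperone gene with the near-identical copy Hspa1a, was at 23.7, 15.8 and 40.9 CPM at E13 and 3.26, 0.705 and 4.59 CPM at E9 (3.24 ± 0.84, adjusted p = 0.0298), and reads of the 2 copies cannot be told apart with certainty. Its call was lost without E13 Het replicate 3 or E9 replicate 1 or 2 (adjusted p up to 0.164). Dnajb4 (1.49 ± 0.34, adjusted p = 0.0154) lost its call without E13 Het replicate 2 or 3 or E9 replicate 1 (up to 0.0806), and the cochaperone gene Bag3 (2.03 ± 0.52, adjusted p = 0.0281) without E13 Het replicate 1 or 2 or E9 replicate 1 or 4 (up to 0.132). In KO against E9 Het epidermis 0 were called higher and 3 lower, Hsp90aa1, Hspd1 and Hsp90ab1, with log2 fold changes of -0.62, -0.72 and -0.52. Hsp90aa1 was lost without KO replicate 1 or E9 replicate 2, Hspd1 without KO replicate 1 or E9 replicate 4, and Hsp90ab1 without any library but KO replicate 2, at adjusted p up to 0.0731, 0.0695 and 0.153. Between KO and Het at E13, 0 of 15 were called with edgeR or DESeq2, and 0 had an unadjusted p under 0.05.

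The fourth comparison set Het epidermis against Het dermis at E13, whose RNA was prepared in different ways. Every member had a negative log2 fold change, lower in epidermis, and 7 of 10 were called. This stands beside 18.2% of 12975 genes called lower and 16.5% called higher. The feedback genes differed most. Zfp36 was at 4.97, 10.6 and 25.7 CPM in epidermis and 139, 139 and 212 CPM in dermis, and was 11.9-fold lower in epidermis (-3.58 ± 0.57, adjusted p = 0.00322). Dusp1 was at 4.07, 17.8 and 21.4 CPM in epidermis and 90.6, 74.7 and 122 CPM in dermis (-2.73 ± 0.55, adjusted p = 0.00775). Ier2, the member that differed least with age, was at 26.9, 36.3 and 39.8 CPM in epidermis and 190.4, 149.7 and 271 CPM in dermis (-2.59 ± 0.28, adjusted p = 0.00033). The libraries of these 3 genes lay far apart between tissues, and their calls were kept in 6 of 6 refits with 1 library left out.

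Egr1 was at 40.7, 209 and 222 CPM in epidermis, against 590.4, 608 and 1149 CPM in dermis (-2.33 ± 0.64, adjusted p = 0.0282). Fos, at 55.8, 142 and 296 CPM in epidermis and 509, 473 and 687 CPM in dermis, was 3.42-fold lower in epidermis (-1.77 ± 0.55, adjusted p = 0.0444). Jun was at 64.0, 153 and 278 CPM in epidermis and 730.0, 559 and 574 CPM in dermis (-1.92 ± 0.49, adjusted p = 0.0216). For Junb the libraries had 26.7, 40.4 and 103 CPM in epidermis and 167, 134 and 199 CPM in dermis (-1.57 ± 0.49, adjusted p = 0.0424). None of these 4 overlapped between tissues, but each call was lost without any 1 dermal library and without 1 epidermal one, E13 Het replicate 3 for Egr1 and replicate 2 for the others. The adjusted p then reached 0.0802 for Egr1, 0.113 for Fos, 0.0720 for Jun and 0.117 for Junb.

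Atf3, Fosb and Jund were not called. Atf3 was at 8.82, 31.7 and 45.1 CPM in epidermis and 50.9, 44.1 and 43.1 CPM in dermis (-0.69 ± 0.51, interval -1.86 to 0.47). Fosb had 17.0, 95.8 and 210 CPM in epidermis and 269, 135 and 135 CPM in dermis (-0.73 ± 0.76, interval -2.52 to 1.06). Jund had 53.1, 85.0 and 106 CPM in epidermis and 208, 102 and 70.9 CPM in dermis (-0.64 ± 0.41, interval -1.59 to 0.31). The 2 tissues overlapped in each of the 3. In all, libraries of 7 members did not overlap, against 31.2% of all genes lower without overlap, and DESeq2 called 7. The members' median was -1.85, beside -0.13 over all genes, and on raw library totals it was -1.44 beside 0.30, with 5 members called. Summed markers of other cells are given beside these values. The 5 neuronal genes summed to 1.81 to 25.7 CPM in E13 Het epidermis and 47.3 to 60.6 CPM in dermis, with no overlap, and Dcx was at 0 in every dermal library. The 6 endothelial genes summed to 0 to 26.6 CPM in epidermis and 25.7 to 29.0 CPM in dermis, which overlapped. The 7 macrophage and leukocyte genes, at 35.9 (Cd68 alone) to 44.9 CPM in epidermis and 39.3 to 71.2 CPM in dermis, overlapped too. So did the muscle genes, at 0 to 2.96 CPM in epidermis and 1.43 to 6.70 CPM in dermis, and the melanocyte genes, at 3.95 to 7.15 CPM in epidermis and 0 to 7.93 CPM in dermis. The part of these cells in the members' levels was not tested.

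The related lists are set beside all genes tested in epidermis against dermis, of which 18.2% were called lower and 16.5% higher. Of 41 other early response genes tested, 18 were called lower and 2 higher in epidermis, with a median of -1.59. Rhob, a small GTPase gene (-3.65 ± 0.23, adjusted p = 3.5e-05), Btg2 (-2.39 ± 0.30, adjusted p = 0.00069) and the stress gene Gadd45b (-2.60 ± 0.34, adjusted p = 0.00082) were lower, whereas Plk2 was higher (2.19 ± 0.30, adjusted p = 0.00096). Of 13 AP-1 and bZIP factors 3 were lower and 0 higher, Atf4 (-1.34 ± 0.16), Atf5 (-1.35 ± 0.28) and Crem (-1.63 ± 0.43). Crem, a regulator of cyclic AMP responses, lost its call without E13 Het replicate 2 or any 1 dermal library (adjusted p up to 0.0936). Of 15 feedback inhibitors 5 were lower and 1 higher, with Spry2 at -2.17 ± 0.23, Zfp36l1 at -1.83 ± 0.22, the phosphatase gene Dusp6 at -2.03 ± 0.27 and Spry4 at -4.48 ± 0.84 among the lower.

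Of 23 upstream genes 7 were called higher and 5 lower in epidermis. Egfr was at 369.8 ± 22.3 CPM in epidermis and 31.6 ± 6.69 CPM in dermis (3.53 ± 0.19, adjusted p = 2.5e-05). Srf, the gene of serum response factor, was at 50.3 ± 13.6 CPM in epidermis and 184 ± 25.4 CPM in dermis (-1.88 ± 0.24, adjusted p = 0.00080). Its partner gene Elk3 was also lower (-3.49 ± 0.34, adjusted p = 0.00021) and its cofactor gene Mkl2 higher (1.87 ± 0.24, adjusted p = 0.00073). Of 15 heat shock genes 8 were lower and 2 higher, with a median of -0.83, among them Dnajb4 (-1.64 ± 0.23), Hspa1b (-2.60 ± 0.37), Hspa5 (-1.06 ± 0.16) and Dnajb1 (-1.03 ± 0.19), with adjusted p from 0.00104 to 0.00468. Of the list genes named for epidermis against dermis, all but Crem kept their calls in 6 of 6 refits with 1 library left out.

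**Figure D4:**
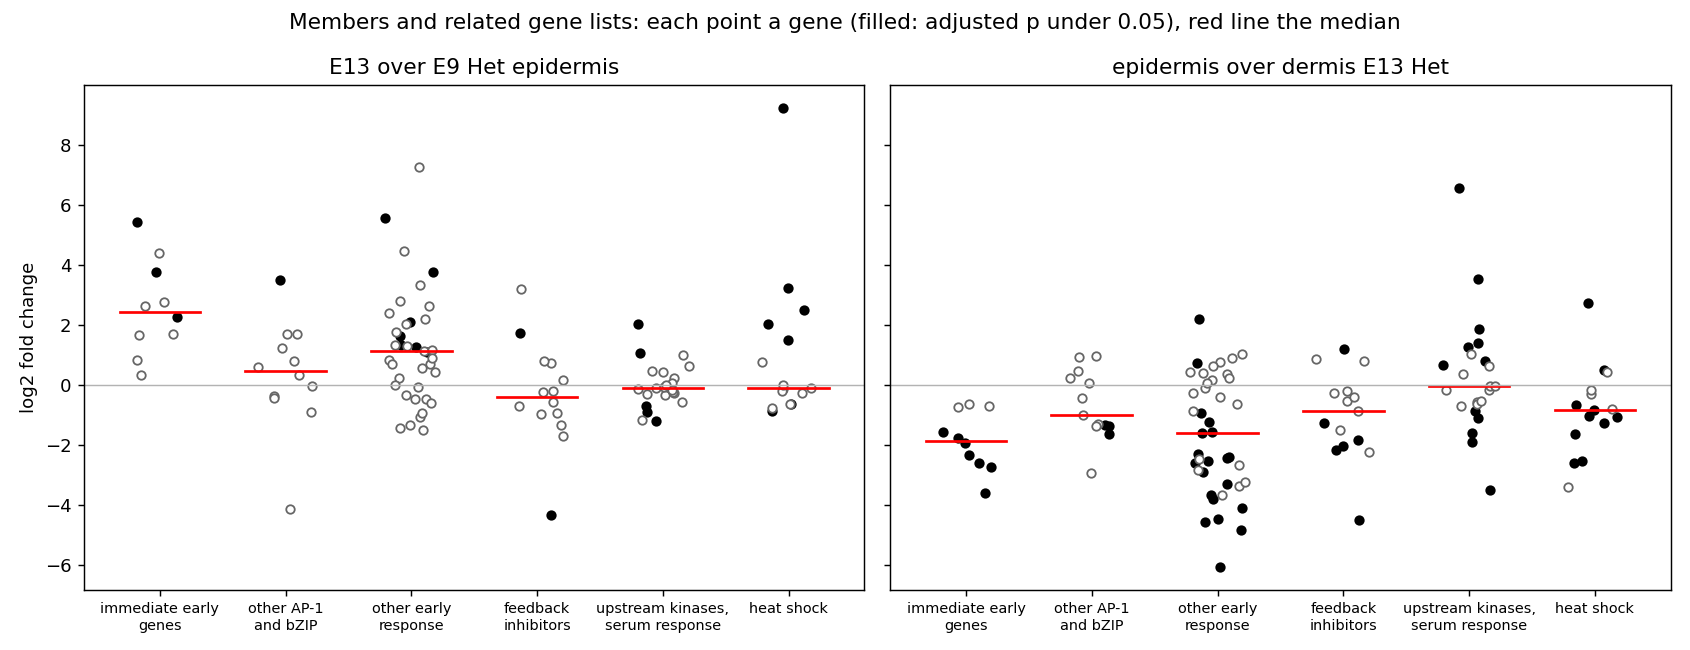
Log2 fold change of each tested gene of 6 lists in E13 over E9 Het epidermis (left) and in epidermis over dermis at E13 (right); filled points passed an adjusted p of 0.05 and red lines are list medians. The immediate early genes have a median of 2.45 on the left and -1.85 on the right.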

How the data were processed

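The deposited files hold whole-number counts of reads per gene symbol, 1 file for each library. Its 5 HTSeq summary lines were left out of totals and tests (20.2% to 63.8% of entries). Per the submitters' processing notes, the tools were HTSeq, TopHat2 and Bowtie2 and the build mm10, without versions. Whether counting used strand is not stated in the labels or headers. No annotated gene overlaps any of the 10 members in RefSeq GRCm38.p6.

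Members, lists and tests were chosen with earlier results of these data known, so no count is independent support. Counts were tested with edgeR 4.0.16 in R 4.3.3 (filterByExpr, TMM, robust quasi-likelihood F test). A gene was called where its p, adjusted by Benjamini-Hochberg over all genes tested, was under 0.05. One fit of 9 epidermal libraries gave the 3 epidermal comparisons (6 residual degrees of freedom), and one of 6 libraries gave epidermis against dermis (4). Standard errors were obtained by dividing the size of the log2 fold change by the square root of F. Replicates differed beyond sampling noise (chi-square per degree of freedom 15.4 to 227). Common biological variation was 0.571 for the epidermal libraries and 0.506 for epidermis with dermis, as coefficients of variation. Counting limits cover counting error only.

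Named genes were Trp63, all members, up to 4 called genes of each list per comparison with the smallest adjusted p, and the 5 genes most like the members' mean z-scored log2 CPM. The count ratios were added after values were seen. Alternatives were DESeq2 1.42.0, RLE factors, raw totals, a replicate block, no filter, a 5 CPM minimum on the mean, leaving out Rn45s and Lars2, all 12 libraries or only the 2 groups in a fit, and leaving out each library or the 2 with fewest genes detected. The procedure was tested on simulated data. The 7 ATAC libraries and 1 ChIP library were not analysed here. A further marker list is not reported here.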

Additional observations from a re-analysis of the deposited data

How the results depend on the processing

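With 10 members and 16 alternatives, or 14 for epidermis against dermis, 22 of 160 log2 fold changes turned sign in KO against Het at E13 and 1 of 160 in KO against E9 Het epidermis, 0 of 160 in E13 against E9 and 0 of 140 in epidermis against dermis. In KO against Het, Fos turned to 0.038 on raw totals and 0.0127 with the replicate block, Ier2 to -0.056 with the block, and Atf3 to -0.14 and Dusp1 to -0.18 without both libraries of fewest genes. With 1 library left out the values ran from -0.81 to 0.73 for Fos, -1.34 to 0.56 for Fosb, -0.67 to 0.33 for Jun, -1.26 to 0.52 for Junb, -0.36 to 0.57 for Atf3, -0.79 to 0.16 for Egr1, -0.41 to 0.42 for Ier2 and -0.76 to 0.74 for Zfp36. In KO against E9 Het epidermis Ier2 ran from -0.078 to 0.77.

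Members called numbered 0 in KO against Het under all 16 alternatives. In E13 against E9 they numbered 6 with DESeq2, 0 with the replicate block, 7 without both libraries of fewest genes, and 1 to 5 with 1 library left out. In KO against E9 Het epidermis they numbered 0 with the block, 7 without both libraries, and 2 to 4 with 1 left out. In epidermis against dermis they numbered 3 with no filter, 4 with all 12 libraries in a fit, and 3 to 7 with 1 left out. The cause was not tested.

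All genes called numbered 656, 1667 and 1820 with DESeq2 in the 3 epidermal comparisons, and 182 to 348, 569 to 812, 557 to 815 and 2934 to 5269 with 1 library left out in the 4. With the block 576 were called in E13 against E9 and 540 in KO against E9. List genes called numbered 7, 35 and 32 with DESeq2 against 2, 22 and 19 with edgeR. Raw totals moved the split in epidermis against dermis to 3156 higher and 1438 lower, from 2140 and 2364.

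Deviations of same-numbered libraries had r of -0.06, 0.25 and -0.06 in KO with Het, where differently numbered ones ran from -0.17 to 0.15. In E13 with E9 the values were -0.00 and 0.03. So few libraries per group cannot decide whether the numbers pair them. The labels do not state a pairing, and the main fits use none. Of 40 group levels, 3 moved by over 1 SD on raw totals and 1 without Rn45s and Lars2. Low E9 counts of Fos, Atf3, Egr1 and Dusp1 limit their fold changes.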
